A study of Homo sapiens with 8 samples.

Results

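The adhesion machinery of a human leukemia line was followed through 9 genes, the leukocyte integrin subunits ITGB2, ITGAL, ITGAM, ITGAX, ITGB1, ITGA4 and ITGA5 and the adhesion molecules PECAM1 and SELPLG. They were picked by symbol, with no measured value in the rule, and all 9 were found among the 26364 symbols of the expression table. All 9 reached 1 TPM in at least 2 libraries, the limit for testing, as did 14151 genes in all. TPM is a transcript abundance corrected for transcript length and scaled to the same sum in every library. Levels of different genes are set side by side on that basis, although the gene lengths used are not given.

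RNA was sequenced from MV4-11, an acute myeloid leukemia (AML) cell line in which every group carries FLT3-ITD, an activating internal tandem duplication, and the MLL-AF4 fusion. Control cells received DMSO, and the treated groups received 5 μM tranylcypromine (TCP), 0.5 μM palbociclib or both together (the combination), with 2 libraries per group and 8 in all. TCP inhibits LSD1, a histone demethylase that represses myeloid genes, and palbociclib inhibits CDK4 and CDK6. The labels give 4 days of treatment, whereas the study's methods describe palbociclib for 1 day followed by both molecules for 3 days, and cell lines grown on HS-5 stromal cells. All libraries come from a single cell line, and the labels do not say whether the replicates were separate cultures, so p-values measure only the spread between these libraries. With 2 libraries against 2, an exact two-sided permutation test cannot go below p = 0.333, and the tests below come from limma, which shares information across all genes and adjusts by the Benjamini-Hochberg method over all 14151.

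Integrins are paired receptors of an alpha and a beta chain that reach the cell surface only as a pair. In leukocytes ITGB2 (CD18) pairs with ITGAL (CD11a), ITGAM (CD11b), ITGAX (CD11c) or ITGAD, whereas ITGB1 pairs with ITGA4, ITGA5 and many other alpha chains. ITGAM and ITGAX appear as myeloid cells mature, ITGA4 and ITGA5 hold blood progenitors to VCAM1 and fibronectin in the marrow, PECAM1 (CD31) acts in passage through endothelium, and SELPLG (PSGL-1) carries the sugars that selectins bind.

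The label of the cells was checked against markers. All 10 AML markers looked at were expressed and tested. Of 6 endothelial markers none was above 0.319 TPM in any library, and KDR was listed at 0 in all 8. The lymphocyte markers CD3E and MS4A1 were listed at 0 in all 8 libraries. One library stood apart in stromal transcripts. In palbociclib replicate 2, 14 of 18 stromal markers reached 1 TPM and COL1A1, COL1A2 and COL3A1 summed to 55.1 TPM, against 0.342 to 8.33 TPM in the other 7 libraries. All stromal markers but TIMP1 summed to 25.9 and 40.4 TPM in control, 37.9 and 43.8 TPM under TCP, 36.0 and 164 TPM under palbociclib, and 49.0 and 66.1 TPM under the combination. More of the 18 reached 1 TPM in replicate 2 than in replicate 1 in 4 of 4 groups. The 11 stromal markers tested had median changes against control of 1.10 (palbociclib) and 0.77 (combination) on the log2 scale, beside -0.16 and -0.22 over all genes, with 1 DEG in each, and their part in the results below was not tested. In bulk RNA, fewer cells with a transcript and less of it per cell cannot be told apart, and no surface protein was measured in these files.

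Palbociclib, alone and with TCP, went with higher ITGB2, PECAM1 and SELPLG and with lower ITGA4 and ITGAL. ITGAM passed an adjusted p of 0.05 under the combination and not under palbociclib alone. Its mean was highest under the combination, as were those of ITGB2, PECAM1, ITGAX and ITGB1. ITGA5, ITGB1 and ITGAX did not pass an adjusted p of 0.05 against control, although ITGA5 did so under the combination in 3 of the alternatives tried. In control cells the 9 levels ran in the order ITGAL, ITGA4, ITGB2, ITGA5, SELPLG, ITGB1, PECAM1, ITGAX and ITGAM, from a mean of 440 down to 1.73 TPM, and no neighbours in that order overlapped between libraries. Under the combination the order was ITGB2, ITGAL, SELPLG, PECAM1, ITGA4, ITGA5, ITGB1, ITGAX and ITGAM, from 693 down to 12.2 TPM, again without overlap between neighbours. The order under TCP was that of control, with PECAM1 and ITGAX overlapping, and the order under palbociclib was that of the combination, with PECAM1 and ITGA4 overlapping.

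**Figure D1:**
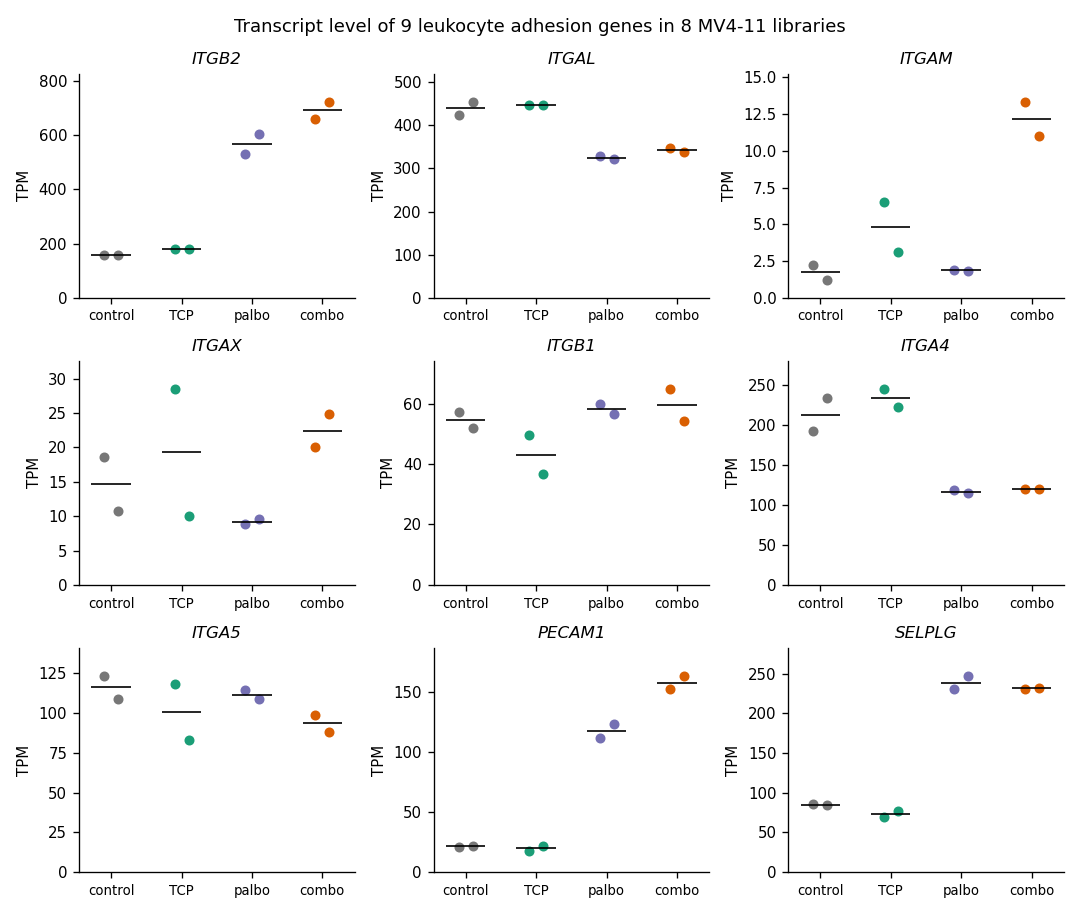
Level of each of the 9 genes in TPM (vertical axis, linear, from 0) in the 2 libraries of each group (points), with the group mean as a line. ITGB2, PECAM1 and SELPLG sit higher in all 4 libraries with palbociclib, ITGA4 and ITGAL sit lower there, and ITGAM sits between 11.0 and 13.3 TPM under the combination against 1.23 to 6.50 TPM elsewhere.

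A gene was called a differentially expressed gene (DEG) when it changed by at least 1 on the log2 scale in either direction with an adjusted p below 0.01, on log2(TPM + 1), a scale that understates changes of low genes. Under TCP 0 of 9 members were DEG, where 0.0565% of all tested genes were (8 genes, and 20 with the replicate number as a block). By limma, 3 members (ITGAM, ITGB2 and SELPLG) had an unadjusted p below 0.05 under TCP, as had 8.77% of all genes. Under palbociclib 3 members were DEG, all higher, where 9.1% of all genes were DEG and 4.54% were DEG and higher. Under the combination 4 members were DEG, all higher, where 13.7% of all genes were DEG and 5.87% were DEG and higher. The median log2 fold change of the 9 was 0.02 under TCP, 0.09 under palbociclib, and 0.62 when both were given, beside medians over all tested genes of -0.04, -0.16 and -0.22. The 0.62 is the value of ITGAX, which was 0.25 without control replicate 2 and 0.99 without control replicate 1. A second rule, an adjusted p below 0.05 with no fold limit, took in 5 members under palbociclib and 6 under the combination, where it took in 45% and 53.6% of all genes. The members' shares by that rule were near those of all genes. Median-ratio scaling moves the median of all genes to 0 and with it the share of DEG that were higher, from 49.9 to 68.0% under palbociclib and from 42.8 to 63.0% under the combination.

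**Figure D2:**
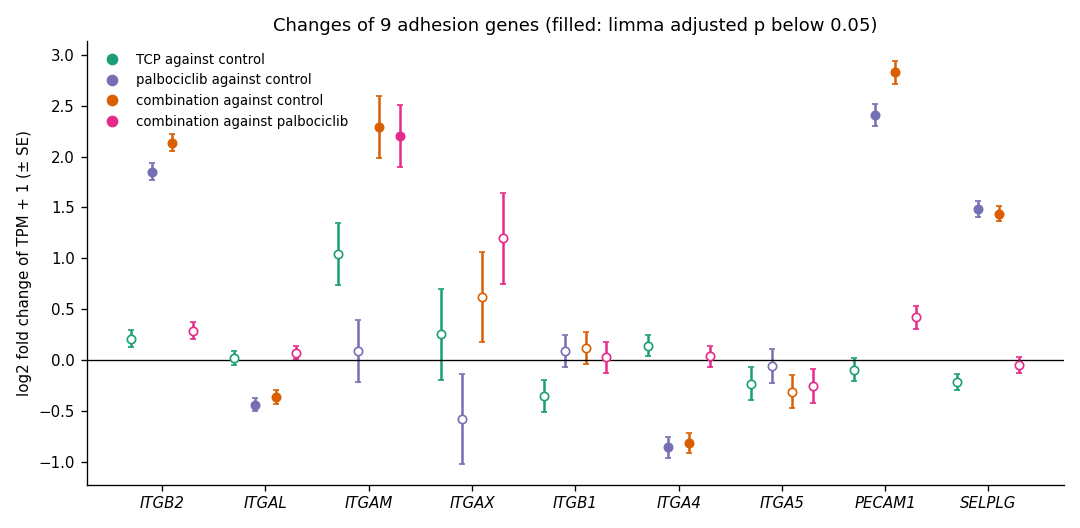
Log2 fold change of TPM + 1 (vertical axis, point ± SE) of each of the 9 genes for 3 treatments against control and for the combination against palbociclib. Filled points have a limma adjusted p below 0.05. The largest values are those of PECAM1, 2.83 under the combination and 2.41 under palbociclib, followed by ITGAM under the combination, 2.29, and ITGAM alone has a filled point for the combination against palbociclib.

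ITGB2, the beta chain that all CD11 alpha chains share, measured 157 and 156 TPM in control, 182 and 181 TPM under TCP, 533 and 603 TPM under palbociclib, and 662 and 725 TPM under the combination. The 4 libraries with palbociclib lay far above the 4 without, and no groups overlapped. Palbociclib raised ITGB2 by a log2 fold change of 1.85 ± 0.08 (SE, adjusted p = 4.25e-05), or 3.63-fold on the means, and the combination raised it by 2.14 ± 0.08 (adjusted p = 1.47e-05), or 4.42-fold. The difference of the combination from palbociclib, 0.29 ± 0.08, did not pass (adjusted p = 0.132). Averaged over both settings of palbociclib, TCP went with 0.25 ± 0.06 on the log2 scale (adjusted p = 0.0699), which with the replicate number as a block had an adjusted p = 0.0263. ITGB2 thereby went from the third most abundant of the 9 to the most abundant.

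ITGAL, the alpha chain of LFA-1, the receptor for ICAM1 that lymphocytes and myeloid cells share, was the most abundant member in control. It measured 425 and 455 TPM in control, 447 and 447 TPM under TCP, 329 and 321 TPM under palbociclib, and 348 and 337 TPM under the combination. The libraries with palbociclib were lower than those without, without overlap. Palbociclib lowered ITGAL by a log2 fold change of -0.43 ± 0.07 (adjusted p = 0.0022), short of the fold limit for a DEG, and by -0.26 with median-ratio scaling (adjusted p = 0.0249). For the combination the value was -0.36 ± 0.07 (adjusted p = 0.00359), but after median-ratio scaling, which divides each library by its typical ratio to the average library, it was -0.11 with an adjusted p = 0.222. Median-ratio scaling removes the median of -0.22 over all genes under the combination, so relative to the typical gene the lower ITGAL in the combination libraries did not pass.

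ITGAM, the CD11b chain that clinics and laboratories use as a marker of myeloid maturation, was the least abundant member in all 4 groups. It measured 2.23 and 1.23 TPM in control, 6.50 and 3.10 TPM under TCP, 1.91 and 1.80 TPM under palbociclib, and 13.3 and 11.0 TPM under the combination. Palbociclib libraries lay inside the range of control, TCP libraries lay above it, and the combination libraries lay above all others. The combination raised ITGAM 7.04-fold on the means, a log2 fold change of 2.29 ± 0.31 (SE, adjusted p = 0.000934), the one member DEG under the combination that was not also a DEG under palbociclib. Under TCP the value was 1.05 ± 0.31 (adjusted p = 0.329) and under palbociclib 0.09 ± 0.31 (adjusted p = 0.833).

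Set directly against each single molecule, ITGAM was 2.54-fold higher under the combination than under TCP, with a log2 fold change of 1.25 ± 0.31 (adjusted p = 0.0134). With the replicate number as a block the adjusted p was 0.00264 and ITGAM was a DEG there, but without combination replicate 1 it was 0.0756. In that comparison 3 members, ITGB2, PECAM1 and SELPLG, were DEG, where 12.2% of all genes were DEG and 5.46% were DEG and higher. Against palbociclib, ITGAM was 6.57-fold higher, with a log2 fold change of 2.20 ± 0.31 (adjusted p = 0.0157). No member was a DEG there, where 0.502% of all genes were (71 genes by limma, and 114 with the block), while 3.49% passed an adjusted p of 0.05 as ITGAM did. ITGAM became a DEG with the block (adjusted p = 0.00417). Leaving out either palbociclib library or either combination library, which leaves that group with 1 library assumed to vary like the others, gave adjusted p-values between 0.0942 and 0.128, with log2 fold changes from 2.07 to 2.33.

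Averaged over both settings of palbociclib, TCP went with a higher ITGAM by 1.62 ± 0.22 on the log2 scale (adjusted p = 0.0107). This just missed the limit for a DEG and passed it with the block (adjusted p = 0.00267). Without palbociclib replicate 1, combination replicate 1 or combination replicate 2 the adjusted p was 0.0522, 0.0635 and 0.0516. In this comparison 0.523% of all genes were DEG and 4.16% had an adjusted p below 0.05. Whether TCP acted more strongly on ITGAM in the presence of palbociclib was tested as an interaction, which was 1.16 ± 0.43 on the log2 scale with an unadjusted p of 0.0318 in limma and an adjusted p of 0.729. For no member did the interaction pass, and for no tested gene (0%), where 904 of 14151 genes (6.39%) had an unadjusted p below 0.05. The lowest adjusted p of a member was 0.581, for PECAM1 with 0.52 ± 0.16. ITGAM was higher in replicate 1 than in replicate 2 in 4 of 4 groups.

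The sequence in front of ITGAM is shown because ITGAM was the alpha chain that rose, and that of ITGA5, an alpha chain that was not called against control in the fit of all 8 libraries, is shown beside it. Each is the 250 bases before the RefSeq start (GRCh38.p14 table), 5′ to 3′ on the gene's strand, found unchanged and once in GRCh37 at chr16:31271046-31271295 (plus strand) and chr12:54813051-54813300 (minus strand). Capitals mark matches on either strand to GAGGAA (the core bound by SPI1), TTGCNNAA (C/EBP), TGTGGT (RUNX) or GGGCGG (SP1).
ITGAM: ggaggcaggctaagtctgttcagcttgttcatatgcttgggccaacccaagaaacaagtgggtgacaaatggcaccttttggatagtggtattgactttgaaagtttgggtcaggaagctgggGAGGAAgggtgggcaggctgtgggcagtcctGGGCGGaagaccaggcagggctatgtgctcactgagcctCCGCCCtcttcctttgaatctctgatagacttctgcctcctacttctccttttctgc
ITGA5: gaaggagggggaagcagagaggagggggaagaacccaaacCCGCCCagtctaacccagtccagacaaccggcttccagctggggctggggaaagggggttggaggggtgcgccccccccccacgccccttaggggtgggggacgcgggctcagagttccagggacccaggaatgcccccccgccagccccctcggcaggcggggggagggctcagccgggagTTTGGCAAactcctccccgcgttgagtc
In ITGAM, GAGGAA began at position -127 from the start, and GGGCGG had 2 matches, at -96 and -57. In ITGA5, TTGCNNAA began at -28 and GGGCGG at -210. Of 35116 windows of this length in front of human genes, 23.6% held GAGGAA, 9.05% TTGCNNAA, 11% TGTGGT and 42.6% GGGCGG, so such matches are common. The window of ITGA4 held none of the 4, and the farther upstream of the 2 windows of ITGB1 held GAGGAA once and GGGCGG 3 times. Windows of ITGAX, ITGAL, ITGB2, PECAM1 and SELPLG were not used here.

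ITGAX, the CD11c chain of monocytes and dendritic cells, had the largest standard error of the 9. It measured 18.7 and 10.7 TPM in control, 28.5 and 10.1 TPM under TCP, 8.79 and 9.55 TPM under palbociclib, and 20.0 and 24.8 TPM under the combination. TCP overlapped control, while both combination libraries lay above both control and both palbociclib libraries. The combination differed from palbociclib by 1.20 ± 0.44 on the log2 scale (adjusted p = 0.229) and from control by 0.62 ± 0.44 (adjusted p = 0.277), and neither passed in the fit of all 4 groups. In a fit of the palbociclib and combination libraries alone the first of these values had an adjusted p of 0.0414.

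ITGAM lies on chromosome 16 at 31271288 to 31344213 (GRCh37, plus strand), with ITGAX at 31366455 to 31394320 and ITGAD at 31404656 to 31437826 on the same strand, and ITGAL farther off at 30483979 to 30534888. The neighbours did not share one level. ITGAD, the fourth alpha partner of ITGB2, was at most 0.0622 TPM in any library.

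Within the CD11 family the makeup of the alpha transcripts was given as shares of the summed TPM of ITGAM, ITGAX, ITGAL and ITGAD, which do not depend on how a library is scaled. ITGAM made up 0.382% ± 0.167 (SD, n = 2) of them in control, 1.01% ± 0.477 under TCP, 0.552% ± 0.0129 under palbociclib alone and 3.23% ± 0.381 under the combination. ITGAX made up 3.24% ± 1.34 in control and 5.96% ± 0.999 under the combination, and ITGAL made up 96.4% ± 1.52 in control and 90.8% ± 0.618 under the combination. Comparing the 4 libraries with TCP and the 4 without, the ITGAM share was 2.12% against 0.467%, without overlap. The exact two-sided permutation p was 0.0286, the smallest that 4 against 4 allows, and 0.0857 after adjustment over the 12 share tests, so it did not pass.

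ITGB2 and its alpha chains did not keep one ratio. For each ITGB2 transcript the libraries held 2.84 and 2.99 alpha transcripts in control, 2.65 and 2.53 under TCP, 0.638 and 0.550 under palbociclib, and 0.577 and 0.515 under the combination. The alpha chains outnumbered ITGB2 in every library without palbociclib and were outnumbered in every library with it. The mean ratio was 0.570 with palbociclib against 2.75 without (exact two-sided permutation p = 0.0286, the smallest possible, 0.0857 adjusted over 12). These are ratios of TPM, so which chain outnumbers the other rests on gene lengths that are not given. How many pairs reached the surface was not measured.

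**Figure D3:**
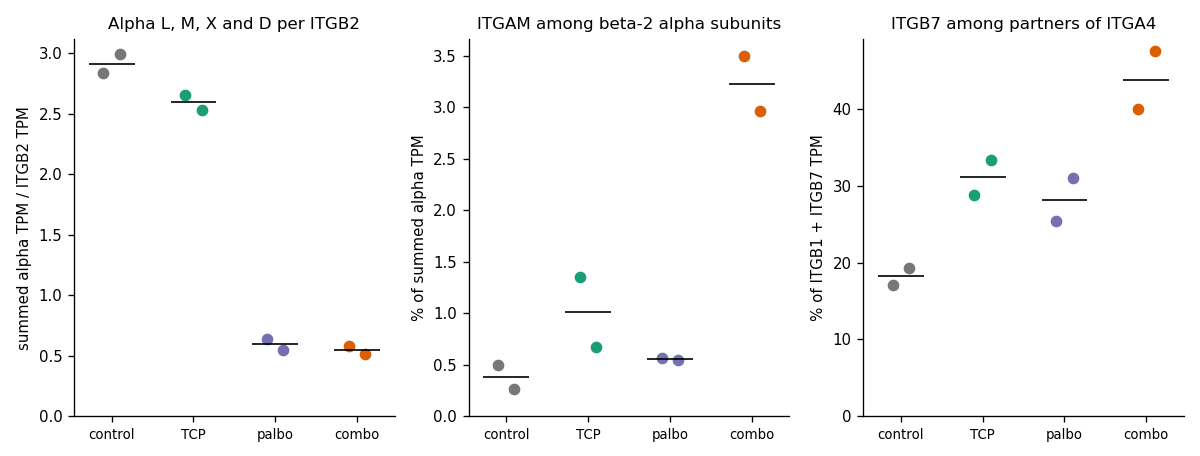
Ratios and shares computed within each library (points, with the group mean as a line) for the 4 groups. Left, summed TPM of ITGAL, ITGAM, ITGAX and ITGAD per TPM of ITGB2, from 2.53 to 2.99 without palbociclib and from 0.515 to 0.638 with it. Middle, ITGAM as a percent of the summed alpha TPM, highest under the combination at 2.96 and 3.50%. Right, ITGB7 as a percent of ITGB1 plus ITGB7, from 17.1% in a control library to 47.5% in a combination library.

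ITGB2 (chromosome 21, 46305868 to 46351904, minus strand, GRCh37) overlaps the long noncoding gene ITGB2-AS1 on the other strand, with 303 bases shared between exons, 12.1% of the ITGB2-AS1 exons. ITGB2-AS1 was chosen after its values were seen. It measured 1.52 and 1.04 TPM in control, 3.47 and 2.19 TPM under TCP, 12.5 and 14.5 TPM under palbociclib, and 23.8 and 27.6 TPM under the combination. It rose with palbociclib by 2.67 ± 0.20 on the log2 scale (adjusted p = 0.000176) and with the combination by 3.56 ± 0.20 (adjusted p = 3.8e-05). Its level was 0.665 to 0.969% of that of ITGB2 in control libraries and 3.60 to 3.81% in combination libraries, so the pair did not keep one ratio. The strand setting of the counting is not given in the sources used here, and a part of ITGB2 reads in the ITGB2-AS1 values was not tested.

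ITGA4, the alpha chain of VLA-4 that binds VCAM1 and fibronectin, measured 192 and 234 TPM in control, 245 and 223 TPM under TCP, 119 and 115 TPM under palbociclib, and 120.6 and 119.8 TPM under the combination. All libraries with palbociclib were lower than all without. Palbociclib lowered ITGA4 by a log2 fold change of -0.85 ± 0.10 (adjusted p = 0.000921) and the combination lowered it by -0.81 ± 0.10 (adjusted p = 0.00074), to 0.549 times control on the means under palbociclib. With median-ratio scaling the same values were -0.68 and -0.57, still past an adjusted p of 0.05. Neither reached the fold limit for a DEG.

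ITGA4 (chromosome 2, 182321929 to 182403667, plus strand, GRCh37) ends inside CERKL on the other strand, with 2813 shared exon bases, 44% of the CERKL exons. CERKL was also the gene whose profile over the 8 libraries was most like that of ITGA4 among 11107 genes, with r = 0.996. Its level was 55.8 to 61.7% of that of ITGA4 in each of the 8 libraries. Reads of the shared end cannot be told apart without the strand setting, so the values of both genes are uncertain to that extent.

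**Figure D4:**
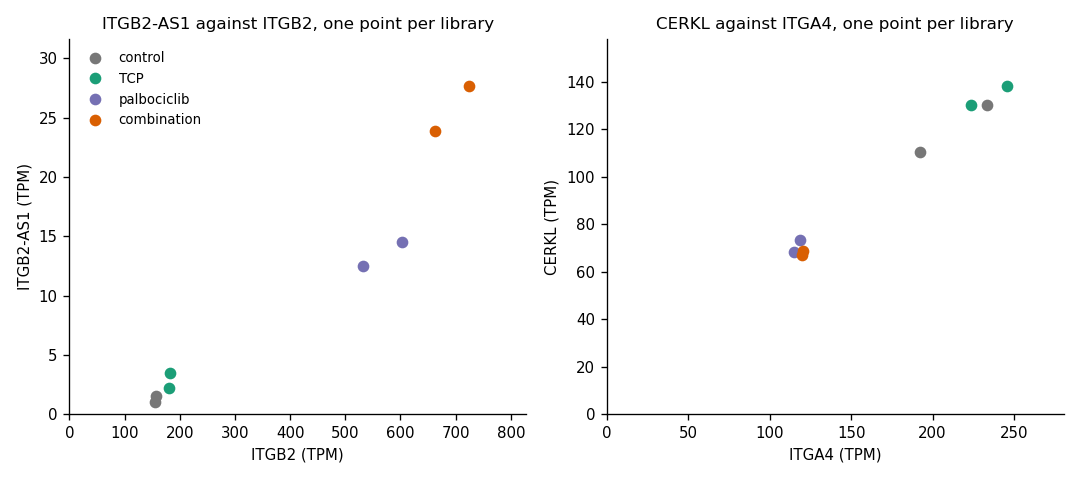
Level of a gene on the opposite strand against the member it overlaps, in TPM on linear axes from 0, with 1 point per library and colour by group. ITGB2-AS1 climbs from 1.04 to 27.6 TPM faster than ITGB2, whereas CERKL stays on a line through the origin at 55.8 to 61.7% of ITGA4.

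ITGA5, the alpha chain of the main fibronectin receptor, measured 123 and 109 TPM in control, 118 and 82.8 TPM under TCP, 114 and 109 TPM under palbociclib, and 99.0 and 88.4 TPM under the combination. Only the combination lay below control without overlap. That difference was -0.31 ± 0.16 on the log2 scale (adjusted p = 0.153), with an adjusted p of 0.0455 with the replicate number as a block, of 0.03 without either TCP library, and a value of -0.06 with median-ratio scaling. ITGA5 was higher in replicate 1 in 4 of 4 groups, as were ITGAM and ITGB1, whereas PECAM1 was so in 0 of 4. The share of ITGA4 in the sum of both was 64.5% ± 5.13 in control, 70.2% ± 3.83 under TCP, 51.2% ± 0.323 under palbociclib alone and 56.3% ± 1.86 under the combination. The 4 libraries with palbociclib lay below the 4 without (exact two-sided permutation p = 0.0286, adjusted p = 0.0857 over 12).

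ITGB1, the beta chain of ITGA4 and ITGA5, measured 57.3 and 52.0 TPM in control, 49.5 and 36.6 TPM under TCP, 59.8 and 56.5 TPM under palbociclib, and 64.9 and 54.3 TPM under the combination. Palbociclib and the combination both overlapped control, with log2 fold changes of 0.09 ± 0.15 and 0.12 ± 0.15 (adjusted p = 0.663 and 0.543). It was higher under the combination than under TCP by 0.47 ± 0.15 (adjusted p = 0.0395, where 50.2% of all genes passed 0.05), but without TCP replicate 2 the value was 0.26 with an adjusted p of 0.152, and 10 of the alternatives tried took the adjusted p above 0.05. Averaged over both settings of TCP, palbociclib went with 0.28 ± 0.11 on the log2 scale (adjusted p = 0.0586), which passed with the replicate number as a block (adjusted p = 0.00922) and in 4 other alternatives, among them median-ratio scaling (0.47, adjusted p = 0.00553). That scaling took the values against control to 0.26 under palbociclib and 0.36 under the combination, neither of which passed. Stromal cells also make ITGB1 and ITGA5, and their part in these values was not tested.

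Of the beta chains, ITGB2 made up 74.2% ± 1.22 of ITGB1 plus ITGB2 in control, 80.9% ± 3.29 under TCP, 90.7% ± 1.08 under palbociclib alone and 92.1% ± 1.39 under the combination. The 4 libraries with palbociclib lay above the 4 without (exact two-sided permutation p = 0.0286, the smallest possible, adjusted p = 0.0857 over 12).

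PECAM1, an immunoglobulin-type receptor of platelets, monocytes, neutrophils and endothelium, had the largest log2 fold change of the 9 under palbociclib and under the combination. It measured 20.8 and 21.8 TPM in control, 18.0 and 22.0 TPM under TCP, 111 and 123 TPM under palbociclib, and 152 and 163 TPM under the combination. TCP overlapped control, and the libraries with palbociclib were all above it. Palbociclib raised PECAM1 5.51-fold on the means, a log2 fold change of 2.41 ± 0.11 (adjusted p = 4.42e-05), and the combination raised it 7.39-fold, 2.83 ± 0.11 (adjusted p = 1.58e-05). Both combination libraries exceeded both palbociclib libraries, by 0.42 ± 0.11 on the log2 scale (adjusted p = 0.105), and with the replicate number as a block the adjusted p was 0.0234. Endothelial markers were at or below 0.319 TPM in every library, as given above.

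SELPLG, the leukocyte ligand for selectins, measured 85.3 and 84.0 TPM in control, 69.1 and 76.6 TPM under TCP, 231 and 247 TPM under palbociclib, and 231 and 232 TPM under the combination. The libraries with palbociclib were all above those without, and the combination overlapped palbociclib. Palbociclib raised it by a log2 fold change of 1.48 ± 0.08 (adjusted p = 5.73e-05) and the combination by 1.44 ± 0.08 (adjusted p = 3.21e-05). The combination differed from palbociclib by -0.04 ± 0.08 (adjusted p = 0.819). The TCP libraries lay below both control libraries, by -0.22 ± 0.08 on the log2 scale (adjusted p = 0.458).

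Averaged over both settings of TCP, palbociclib made DEG of ITGB2, PECAM1 and SELPLG, 3 of 9 members where 11% of all genes were DEG and 5.16% were DEG and higher. The values were 1.89 ± 0.06 for ITGB2, 2.66 ± 0.08 for PECAM1 and 1.57 ± 0.05 for SELPLG. Under each alternative tried, these 3 genes stayed DEG for palbociclib and for the combination against control, also without palbociclib replicate 2. The likeness of profiles points to other genes of the same shape. Over the 8 libraries, which form 4 groups and are no random sample, the gene most like ITGB2 was THBS1 (r = 0.9998), the one most like PECAM1 was the cytokine gene TNFSF13 (r = 0.999), and those most like SELPLG were APLP2 and the kinase gene FGR (r = 0.998 each). The gene most like ITGAM was FCGR2B, an inhibitory Fc receptor (r = 0.988), with mean levels of 3.46 TPM in control, 16.3 under TCP, 3.96 under palbociclib alone and 41.4 under the combination. Those values keep the order of the group means of ITGAM.

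Other genes of adhesion were read from lists of related genes, whose counts of DEG under the combination stand beside the 13.7% of all genes that were DEG (5.87% DEG and higher). Of 19 other integrin subunits, 7 were tested, and under the combination 1 was a DEG higher and 1 lower, with a list median of -0.18 beside -0.22 over all genes. ITGB7, the other beta chain that ITGA4 can pair with, measured 11.8 and 12.4 TPM in control, 20.0 and 18.3 TPM under TCP, 20.3 and 25.3 TPM under palbociclib, and 43.3 and 49.1 TPM under the combination. It was raised by the combination by 1.85 ± 0.13 on the log2 scale (adjusted p = 7.1e-05). ITGB7 as a share of ITGB1 plus ITGB7, a quantity chosen after the values were seen and not tested, was 18.2% in control, 31.1% under TCP, 28.2% under palbociclib alone and 43.8% under the combination. ITGA7, a laminin receptor chain, fell by 1.04 on the log2 scale under the combination, and by 0.80 with median-ratio scaling, short of the fold limit.

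Of 30 genes that activate integrins or link them to the cytoskeleton, 26 were tested and 5 were DEG under the combination, all higher, where 5.87% of all genes were DEG and higher. Their median log2 fold change was 0.06 beside -0.22 over all genes. They included FGR, LYN and SRC, which are kinases of the Src family that signal from integrins, and FYB, an adaptor that couples signalling to integrin activation. FGR measured 19.8 and 22.0 TPM in control, 14.8 and 17.2 TPM under TCP, 206 and 213 TPM under palbociclib, and 216 and 229 TPM under the combination. FGR rose by 3.27 with palbociclib and by 3.35 with the combination on the log2 scale. LYN rose from 113 and 115 TPM in control to 232 and 242 TPM under palbociclib and to 347 TPM in both combination libraries. FYB rose by 1.91 with palbociclib and by 1.46 with the combination, and under TCP it was lower by a log2 fold change of -0.76 (adjusted p = 0.0153), the one gene of these lists that passed an adjusted p of 0.05 under TCP. Leaving out any library but TCP replicate 1 took that adjusted p to between 0.0521 and 0.121, and a fit on the control and TCP libraries alone gave 0.312. Talin 1 (TLN1), which switches integrins on, passed neither the DEG limit nor an adjusted p of 0.05 under any of the 3 treatments. FERMT3, the blood cell kindlin, was 0.58 higher on the log2 scale under palbociclib (adjusted p = 0.00664) and 0.50 higher under the combination (adjusted p = 0.00962), the latter with adjusted p = 0.056 without control replicate 1 and 0.0693 without combination replicate 2. SRC, TLN1 and FERMT3 were named after their values were seen.

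Of 20 ligands and counter-receptors 11 were tested, and under the combination 3 were DEG higher and 1 lower, with a median of 0.42. THBS1, a matrix protein that binds integrins and CD36, measured 34.7 and 36.3 TPM in control, 48.6 and 51.1 TPM under TCP, 727 and 942 TPM under palbociclib, and 1261 and 1454 TPM under the combination. The combination raised THBS1 by 5.21 ± 0.13 on the log2 scale. VTN, vitronectin, was at most 0.512 TPM in the 4 libraries without palbociclib and 8.47 to 20.8 TPM in those with it. ICAM1, the ligand of ITGAL and ITGAM, rose by 1.10 ± 0.19 under the combination (adjusted p = 0.00265), while ICAM2, another ligand of ITGAL, fell by 1.71 on the log2 scale (adjusted p = 0.00275). Both calls depended on single libraries, with adjusted p-values of 0.015 to 0.0215 for ICAM1 without control replicate 2 or either combination library, and of 0.0141 to 0.0205 for ICAM2 without either control library or combination replicate 2. Under palbociclib alone ICAM2 was also a DEG, with a log2 fold change of -1.92 (limma adjusted p = 0.00233). That call was lost without either control library or palbociclib replicate 2. VCAM1 was listed at 0 in all 8 libraries. FN1, fibronectin, was 23.4 TPM in palbociclib replicate 2 and 1.22 to 7.04 TPM in the others, so its high value came with the library rich in stromal transcripts. VTN was also higher in that library, at 17.6 TPM against 8.47 TPM in palbociclib replicate 1, but was 20.8 TPM in combination replicate 2. The part of stromal cells in the VTN and THBS1 values was not tested.

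Selectins bind PSGL-1 through glycans added after translation, and some of them also need its sulfated tyrosines. Of 12 genes of these steps 11 were tested, with 2 DEG higher and 1 lower under the combination and a median of -0.07. GCNT1, which starts the core 2 branch, measured 17.6 and 20.1 TPM in control, 15.3 and 17.8 TPM under TCP, 50.9 and 53.0 TPM under palbociclib, and 68.6 and 75.7 TPM under the combination. ST3GAL6, a sialyltransferase of selectin ligands, rose by 2.04 ± 0.25 on the log2 scale under the combination, while ST3GAL4, another one, fell by 1.04 and, with median-ratio scaling, by 0.80. FUT7, the fucosyltransferase of leukocyte selectin ligands, was 24.8 to 28.5 TPM in control and 29.5 to 35.8 TPM under the combination, with a log2 fold change of 0.28 (adjusted p = 0.112, and 0.0182 with the replicate number as a block) that was 0.52 with median-ratio scaling. Under palbociclib the FUT7 value was 0.41 (adjusted p = 0.0407). GCNT1, ST3GAL6 and SELPLG all rose with palbociclib, whereas the genes of the list did not move as one. For palbociclib against control, ST3GAL6 missed the DEG limit in a fit of the compared groups only. It also missed that limit without control replicate 1 or either palbociclib library.

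Of 20 other leukocyte adhesion molecules 15 were tested, and 3 were DEG under the combination, all higher, with a median of 0.09. They were CD99L2, which acts with PECAM1 in passage through endothelium, CD82, a tetraspanin that partners integrins, and CD48. CD99L2 rose by 1.42 with palbociclib and by 1.27 with the combination on the log2 scale, and CD82 by 1.58 and 1.27. Under the combination CD82 and CD48 missed the DEG limit with no filter and when either control library, either palbociclib library or combination replicate 2 was left out. CD82 also missed it without combination replicate 1 and with no trend. CD48 also missed it without either TCP library and in a fit of the compared groups only. For palbociclib against control, CD82 missed the DEG limit with no filter and without either control or either palbociclib library. Over palbociclib and the combination against control, CD99L2 missed it in 0 of 34 alternatives. CD44, the hyaluronan receptor, measured 24.2 and 37.8 TPM under palbociclib against 44.2 and 53.9 TPM in control, -0.67 on the log2 scale (adjusted p = 0.0331). In 10 alternatives the adjusted p lay between 0.0506 and 0.158, the highest without control replicate 2, with log2 fold changes from -0.36 without palbociclib replicate 1 to -0.81 without control replicate 1. Under the combination CD44 was at -0.07 (adjusted p = 0.802). CD48, CD44, VCAM1, FN1 and FUT7 were named after their values were seen.

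**Figure D5:**
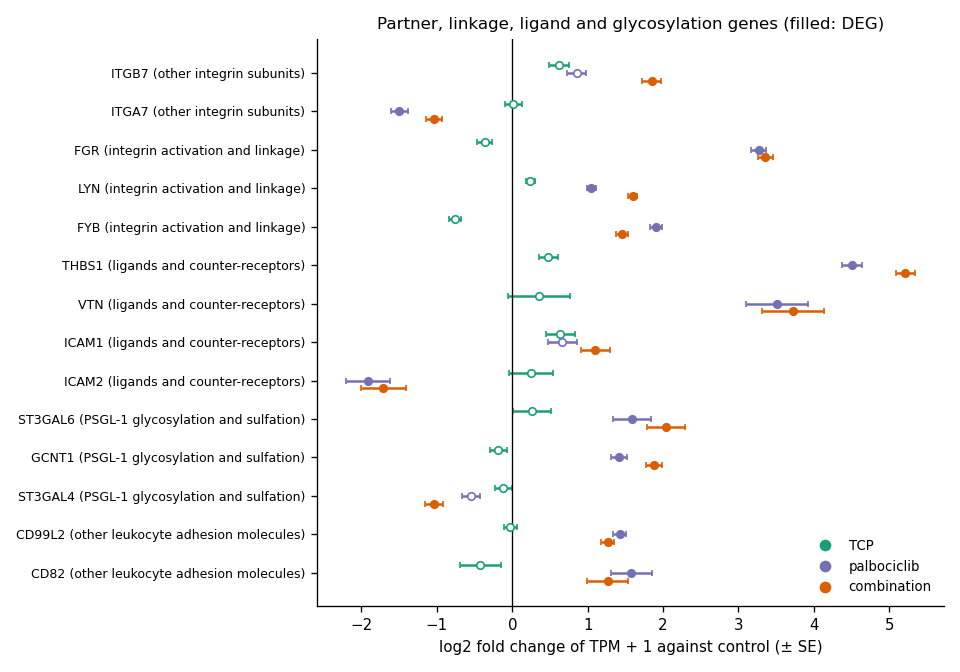
Log2 fold change of TPM + 1 against control (horizontal axis, point ± SE) for the 3 treated groups and the genes of the related lists that were most changed under the combination. Filled points are DEG. THBS1 reaches 5.21 and FGR 3.35 under the combination, ICAM2, ITGA7 and ST3GAL4 lie below 0, and no point for TCP is filled.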

How the data were processed

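The deposited values are TPM per gene symbol for 8 libraries. The authors prepared stranded mRNA libraries, aligned reads to hg19 with Subread, counted with featureCounts 1.6.4 and turned counts into TPM. SAMtools 1.9 and DESeq2 1.26.0 are also named in the submitters' processing notes. The gene annotation, gene lengths and strand setting are not given in the sources used here. TPM keeps no read depth, so sequencing depth is unknown and counting intervals could not be computed. Each library had 13320 to 13640 genes at 1 TPM or more, and replicates correlated at r = 0.983 to 0.991 on the log2 scale.

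Here log2(TPM + 1) was fitted with limma 3.58.1 (R 4.3.3), using a coefficient for each of the 4 groups and a mean-variance trend, over genes that had 1 TPM in 2 or more libraries. The fit was tested on simulated data. Shares of summed TPM were compared by exact permutation. The members, gene lists and tests were chosen with earlier results of these data known. All 9 members are named. From each related list the 3 largest increases and 3 largest decreases under the combination are named, among DEG whose higher group averaged 5 TPM or more. For each member the genes with the highest Pearson r over 8 libraries were read off. Positions come from GENCODE on GRCh37, which does not place PECAM1 under that symbol, and upstream windows come from RefSeq. Some genes of the lists are not reported here.

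The groups share replicate numbers 1 and 2. Deviations from group means correlated across genes between same-numbered libraries in all 6 pairs of groups (r = 0.169 to 0.491). Libraries of one number may thus be paired, which rests on the values alone. The main fit held no term for the replicate number, and pairing entered only through the replicate block, an alternative. Alternatives were a pseudocount of 0.1, no filter, a filter at a mean of 5 TPM, quantile normalization, median-ratio scaling, leaving out the 10 most abundant genes, the replicate block, a fit of the compared groups only, no trend, other thresholds, and each replicate left out in turn.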

Additional observations from a re-analysis of the deposited data

How the results depend on the processing

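Of the 13 times a member was a DEG, over 8 comparisons, 0 were lost in 244 alternatives, and each kept its direction. The 244 include the looser thresholds, under which no call could be lost. The 13 come from ITGB2, PECAM1, SELPLG and ITGAM alone, counted over comparisons that share libraries. The number of members that were DEG ranged, with each replicate left out, from 3 to 3 for palbociclib against control, 4 to 4 for the combination against control, 3 to 4 for the combination against TCP, 0 to 1 for the combination against palbociclib (1 without TCP replicate 1), 0 to 1 for TCP averaged over palbociclib (1 without TCP replicate 2) and 0 to 0 for TCP. The replicate block, the pairing by number, gave 1 member for the combination against palbociclib and 1 for TCP averaged over palbociclib, ITGAM in both, and 4 for the combination against TCP, with ITGAM added. The block raised the DEG over all genes as well. They went from 71 to 114 for the combination against palbociclib and from 74 to 103 for TCP averaged. For the combination against TCP they went from 1720 to 1816. Quantile normalization and an adjusted p below 0.05 also gave 1 member for the combination against palbociclib and 1 for TCP averaged. Median-ratio scaling and a mean of at least 5 TPM gave 1 for TCP averaged. Counts over all genes under these other settings are not reported here. An adjusted p below 0.05 with no fold limit gave 5 members for palbociclib, where 45% of all genes passed. It gave 7 for the combination against TCP (50.2% of all genes) and 6 for palbociclib averaged over TCP (61.9%). For the combination against palbociclib it gave 1 (3.49%), and for TCP averaged 1 (4.16%). Changes of sign came up 38 times, counted over results and alternatives, all in results of members that were not DEG. The ITGA5 interaction alone held 6 of them. Values were at most 0.45 in size after the change, and the cause of the changes was not tested. On the log2 scale, ITGA5 became 0.053 with quantile normalization, 0.12 with median-ratio scaling and 0.031 without the 10 most abundant genes for palbociclib against control, and 0.068, 0.12 and 0.026 for the combination against TCP, and 0.060, 0.12 and 0.028 for palbociclib averaged. The ITGA5 interaction became 0.015 with quantile normalization and 0.00041 with median-ratio scaling. ITGAX for palbociclib averaged became 0.015 and 0.071, ITGAL for TCP -1.3e-05 with quantile normalization, and SELPLG for the combination against palbociclib 0.025 with median-ratio scaling. With each replicate left out, the log2 fold change for TCP ranged from -0.45 to 0.96 for ITGAX, -0.026 to 0.072 for ITGAL, -0.48 to 0.025 for ITGA5 and -0.23 to 0.046 for PECAM1. For palbociclib it ranged from -0.18 to 0.36 for ITGAM and -0.14 to 0.032 for ITGA5, and for the combination from -0.0075 to 0.25 for ITGB1. Against TCP the combination ranged from -0.34 to 1.07 for ITGAX and -0.33 to 0.17 for ITGA5, and against palbociclib from -0.097 to 0.16 for ITGB1 and -0.094 to 0.0054 for SELPLG. The interaction ranged from -0.013 to 0.17 for ITGB2, -0.24 to 0.037 for ITGA4 and -0.28 to 0.23 for ITGA5, and palbociclib averaged from -0.46 to 0.25 for ITGAX and -0.19 to 0.059 for ITGA5. CD44, no member, became 0.14 for the combination with quantile normalization, 0.18 with median-ratio scaling and 0.039 without the 10 most abundant genes, and ranged from -0.21 to 0.074 with each replicate left out. The effect of TCP on the alpha transcripts per ITGB2 ranged from -0.585 to 0.228, and that of palbociclib on the ITGAX share from -0.079 to 1.45 percentage points. Depth is unknown, so the error of low values such as those of ITGAM rests on 2 libraries per group.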
